A study of Homo sapiens with 16 samples.

Results

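The genes described here are the small nucleolar RNAs (snoRNAs), small Cajal body RNAs (scaRNAs) and spliceosomal small nuclear RNAs (snRNAs) of HMC3, an established human microglial cell line, in libraries depleted of ribosomal RNA. They were chosen by name (symbols starting with SNORD, SNORA, SCARNA, RNU or RNVU and a digit) and by a TPM (a share of the library after division by gene length) above 0 in at least 3 of 6 libraries. Of 60669 genes in the table, 2381 had such a name, and 99 were members. The 99 were 32 C/D snoRNAs (SNORD), 26 H/ACA snoRNAs (SNORA), 7 scaRNAs, 8 genes of the major spliceosome's snRNAs (U4, U5 and U6), 9 variant U1 genes (RNVU1), 2 genes of the minor spliceosome's snRNAs and 15 other annotated copies of snRNA genes (RNU). Which members were detected was set by the TPM values themselves, so detection is described without a test. The wild-type HMC3 cells and the HMC3 cells labelled knockout of METTL3, the catalytic subunit of the enzyme that methylates adenosines in messenger RNA, had 3 rRNA-depleted libraries each, made from 100 ng of total RNA with a directional kit. A further set of 5 and 5 Smart-seq2 libraries of poly(A) RNA is available as the authors' deposited table of 1 comparison. No treatment, time point, guide or clone is given in the sources used here, so it is not known whether the knockout-labelled cells are 1 clone, or whether replicates are separate cultures, and the p-values measure the spread between these samples only.

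C/D snoRNAs guide methylation of the ribose of ribosomal RNA, and H/ACA snoRNAs guide its conversion of uridine to pseudouridine. A few of either kind, such as U3 (SNORD3) and U17 (SNORA73), act instead in cutting the ribosomal RNA precursor. ScaRNAs do the same guiding for spliceosomal snRNAs in Cajal bodies. Most human snoRNAs are cut out of introns of host genes, whereas U1, U2, U4 and U5 come from their own promoters and are exported, given a ring of Sm proteins and re-imported. U1 recognizes the 5′ splice site, U4 holds U6 inactive until the spliceosome is activated, and U5 aligns the exons to be joined.

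The sequences of the members on which the results turn are from GENCODE 29 transcripts (GRCh38, 5′ to 3′). The C/D snoRNA that led its class in the wild type and, among members averaging 5 reads or more, the one with the largest read ratio in the other direction are shown with the C box letters TGATGA and the D box letters CTGA in capitals.
SNORD17 (chr20:17962710-17962946, minus strand): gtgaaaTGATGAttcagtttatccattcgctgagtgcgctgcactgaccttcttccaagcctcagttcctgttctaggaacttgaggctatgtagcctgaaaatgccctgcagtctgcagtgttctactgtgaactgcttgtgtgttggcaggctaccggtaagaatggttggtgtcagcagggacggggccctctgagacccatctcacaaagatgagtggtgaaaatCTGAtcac
SNORD114-20 (chr14:100981004-100981075, plus strand): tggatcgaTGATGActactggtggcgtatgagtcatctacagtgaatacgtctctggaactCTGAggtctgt
A search of the transcript strand found TGATGA in the first 20 bases together with CTGA in the last 20 bases in 67.3% of 278 SNORD genes, in 20 of the 32 C/D members and in 0 of 147 SNORA genes. SNORA71A and SNORA71C, 2 of the 4 members of an H/ACA family hosted by SNHG17, are shown to give their likeness: they differ by 23 edits (82.8% identity).
SNORA71A (chr20:38427309-38427442, minus strand): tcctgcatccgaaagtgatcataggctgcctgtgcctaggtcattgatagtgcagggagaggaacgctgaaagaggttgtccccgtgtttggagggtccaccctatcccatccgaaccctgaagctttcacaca
SNORA71C (chr20:38429670-38429803, minus strand): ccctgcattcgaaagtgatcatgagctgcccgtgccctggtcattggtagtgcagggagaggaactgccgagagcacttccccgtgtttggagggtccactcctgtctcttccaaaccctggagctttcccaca
The trinucleotide ACA, 3 bases before the end in mature H/ACA RNAs, stood there in 76.2% of 147 SNORA genes and in 16 of the 26 members. These SNORA71 entries have no ACA at that place and are therefore in lower case. SCARNA13, the scaRNA with the most reads, and SCARNA5, the one with the largest read ratio, are shown next, with the ACA in capitals in SCARNA13 and the C and D box letters in SCARNA5.
SCARNA13 (chr14:95533355-95533629, minus strand): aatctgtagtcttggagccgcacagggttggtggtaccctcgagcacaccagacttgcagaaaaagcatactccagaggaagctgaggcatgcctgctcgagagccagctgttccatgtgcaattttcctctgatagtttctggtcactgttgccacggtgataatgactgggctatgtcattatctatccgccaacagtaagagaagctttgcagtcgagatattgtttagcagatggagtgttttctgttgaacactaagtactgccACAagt
SCARNA5 (chr2:233275727-233276002, plus strand): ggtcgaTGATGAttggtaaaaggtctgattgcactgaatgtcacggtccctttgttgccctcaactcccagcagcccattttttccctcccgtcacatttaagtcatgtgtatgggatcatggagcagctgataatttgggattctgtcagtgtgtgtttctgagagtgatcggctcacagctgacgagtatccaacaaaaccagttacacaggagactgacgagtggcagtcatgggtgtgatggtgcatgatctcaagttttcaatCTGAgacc
The variant U1 genes are shown beside RNU1-1, the reference U1 gene, with the letters that pair with the 5′ splice site (ACTTACCTG) and the Sm site letters AATTTGTGG in capitals.
RNU1-1 (chr1:16514122-16514285, minus strand): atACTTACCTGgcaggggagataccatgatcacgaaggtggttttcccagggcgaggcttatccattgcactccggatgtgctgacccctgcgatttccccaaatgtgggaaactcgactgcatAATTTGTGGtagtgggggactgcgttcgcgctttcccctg
RNVU1-28 (chr1:144560666-144560829, minus strand): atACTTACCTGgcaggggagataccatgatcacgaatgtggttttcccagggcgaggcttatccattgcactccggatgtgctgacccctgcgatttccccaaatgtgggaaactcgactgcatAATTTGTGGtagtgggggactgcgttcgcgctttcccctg
RNVU1-31 (chr1:145465617-145465780, minus strand): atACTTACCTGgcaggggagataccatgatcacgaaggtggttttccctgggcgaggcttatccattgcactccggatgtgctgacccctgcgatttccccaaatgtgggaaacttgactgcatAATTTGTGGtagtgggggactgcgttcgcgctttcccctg
RNVU1-28 was 1 edit from RNU1-1 (99.4% identity) and RNVU1-31 was 2 edits from it (98.8%). ACTTACCTG in the first 12 bases was present in 43 of 132 U1 genes and copies (32.6%) and in 6 of the 9 RNVU1 members, and AATTTGTGG in 43.9% and in 8 of the 9. A match of letters is a description and no evidence of a working RNA.

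The libraries were shallow and unequal. Whole reads could be recovered from TPM and gene length, and gave 266157 to 487272 reads over genes in the wild-type libraries and 512627 to 1267171 in the knockout-labelled ones. For a gene of 100 bases 1 read was worth 59.9 to 103 TPM in the wild type and 27.4 to 64.6 TPM in the knockout-labelled libraries. Ratios of reads over depth below take depth on the TPM scale, as the sum of 1 divided by that worth. They are not ratios per total reads. Knockout-labelled libraries 1 and 2 differed by no more than sampling noise (a chi-square statistic of 1.02 per degree of freedom over 10120 genes) while every other pair of a label did differ, and they were averaged and counted as 1 sample (n = 3 and n = 2). METTL3 was listed at 31.2, 31.6 and 25.4 TPM in wild-type and at 39.2, 40.0 and 42.7 TPM in knockout-labelled libraries, so it was not lower in the libraries labelled knockout, and directions are given by label only. Of 10 microglial markers 7 were at 0 in all 6 libraries, among them AIF1, ITGAM, P2RY12 and PTPRC, and the summed level of the list was at most 6.47 TPM. The 8 fibroblast and mesenchymal markers summed to 11520 to 13940 TPM in the wild-type and 5359 to 5452 TPM in the knockout-labelled libraries. Of these, COL1A1, COL1A2 and PDGFRB were lower and FN1 and VIM higher in all knockout-labelled libraries, while LUM was at 0 in all 6, and COL3A1 and DCN had a value above 0 in 1 library each. The astrocyte and neuron lists summed to at most 3.36 and 12.1 TPM. Their part in the results was not tested. Fewer cells of a type and less RNA per cell cannot be told apart in such libraries.

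The members together took a smaller share of the knockout-labelled libraries. In the wild-type libraries they summed to 58945, 72221 and 54345 TPM and to 14582, 14854 and 18102 TPM in the knockout-labelled libraries, a mean of 61837 ± 9282 (SD, n = 3) against 16410 ± 2393 (SD, n = 2), or 3.77-fold lower. All knockout-labelled values lay below all wild-type values. These sums rested on 4724 reads in the wild type and 2056 in the knockout-labelled libraries, although the second had more reads in all. Short genes of other kinds moved the same way. Genes of up to 300 bases that are not members held 12.3%, 14.5% and 11.4% of the wild-type and 3.17%, 3.07% and 3.28% of the knockout-labelled libraries' TPM. RN7SL1 and RN7SL2, the RNA of the signal recognition particle, were at 55725, 72331 and 47198 TPM and at 1603, 1822 and 3563 TPM. Whether short RNAs were recovered equally in the libraries of both labels was not tested.

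**Figure D1:**
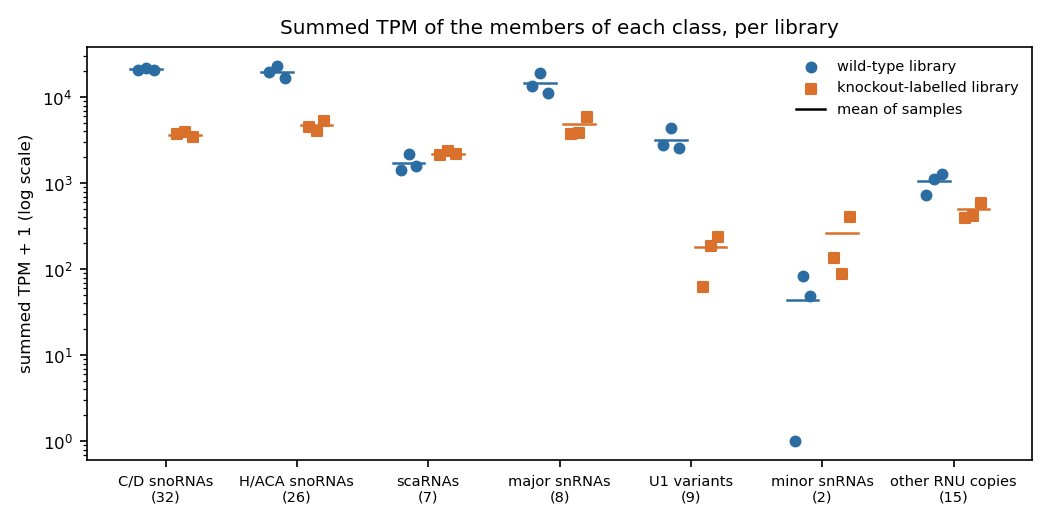
Summed TPM plus 1 of the members of each class (log scale) in each of 6 rRNA-depleted libraries, with circles for wild-type and squares for knockout-labelled libraries and bars for the mean of samples (libraries 1 and 2 labelled knockout counted as 1). The number of members is under each class name. Both snoRNA classes, the major snRNAs and the U1 variants sit lower in all knockout-labelled libraries, and the scaRNAs overlap.

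The classes did not share 1 pattern. The C/D snoRNA sum was 21179 ± 674 TPM over the wild-type libraries (SD, n = 3) and 3624 ± 264 TPM over the samples labelled knockout (SD, n = 2), 5.84-fold lower. SNORD17 alone was 72.2% of that class in the wild type and 10.5% in the knockout-labelled libraries, and without it the class was 1.80-fold lower. H/ACA snoRNAs were 4.14-fold lower, from 19917 ± 3195 to 4813 ± 777 TPM, and 2.59-fold lower without SNORA71A. The major snRNAs were 3.05-fold lower, from 14697 ± 4155 to 4825 ± 1516 TPM. The U1 variants had the lowest level relative to the wild type, 3224 ± 983 against 179 ± 80.1 TPM, 18.0-fold lower. Several of them met the rule through the wild type, so this fold was in part set by how members were chosen. ScaRNAs overlapped between the labels at 1730 ± 400 and 2209 ± 62.8 TPM, and without SCARNA7 they were 2.54-fold higher in the knockout-labelled samples. The 2 minor snRNA genes had 2 reads in the wild type and 17 in the knockout-labelled libraries, too few for a fold. The 15 other copies summed to 1048 ± 278 and 500.2 ± 135 TPM.

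Of the 99 members, 46 had at most 3 reads in every library, 19 had reads only in knockout-labelled and 5 only in wild-type libraries. On log2(TPM + 1) a gene at 0 in 1 label and at 1 read in the other changes by about as much as a strongly expressed gene that fell, so values of such members carry little weight. The limma test across the 14789 genes that reached 1 TPM in 3 or more libraries (Benjamini-Hochberg adjusted p under 0.05) called 20 members higher and 28 lower in the knockout-labelled libraries, where it called 22.9% of all genes higher and 12.4% lower. All but 1 of the 20 had no read in any wild-type library, and such members had to differ, since only the knockout-labelled libraries made them members. A count of calls over members therefore depends on the reads required. With a mean of at least 5 reads per library, a limit set after the data were seen, 24 members were left, and 3 were called higher and 16 lower, against 34.1% and 15.4% of 10487 genes. The median log2 change was 0.73 over the 99 members and 0.41 over all genes, but -3.08 over the 24 members and 0.48 over all genes of that depth. Samples of the labels did not overlap for 34 lower and 29 higher of the 99 members, beside 21.6% and 41.1% of all genes. Of the 24 members, 17 were lower and 5 higher without overlap, beside 22.5% and 49.0% of genes of that depth.

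Among other genes the fall was not particular to these classes. Of 40 genes of up to 300 bases that are not members and averaged 5 reads or more, 36 were lower and 3 higher, with a median log2 change of -3.02. Of these 40 genes, 34 are copies of the signal recognition particle RNA, of which 33 were lower, and the remaining 6 split 3 and 3. Of 10423 genes over 300 bases, 34.2% were higher and 14.99% lower.

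**Figure D2:**
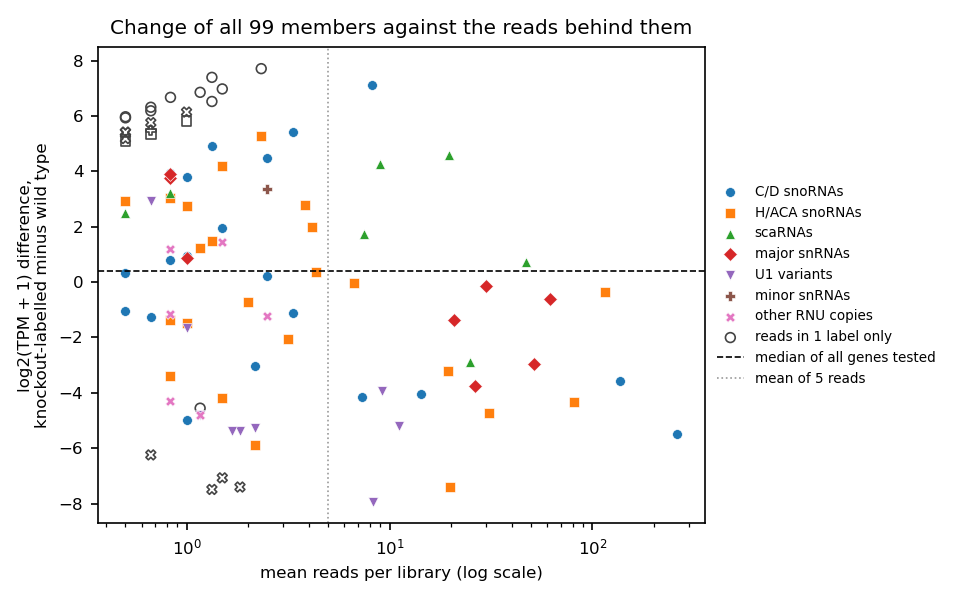
Difference in log2(TPM + 1) of each of the 99 members, knockout-labelled minus wild type, against its mean reads per library (log scale), with symbols for classes and open symbols for members with reads in 1 label only. The dashed line is the median of all genes tested, 0.41, and the dotted line a mean of 5 reads: left of it large changes in both directions rest on few reads, and right of it most members lie below the median.

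SNORD17 carried most C/D reads. It is encoded on chromosome 20 in an intron of SNX5, a sorting nexin gene, and its wild-type levels were 15122, 14278 and 16470 TPM (506, 327 and 652 reads), against 481, 439 and 245 TPM in the knockout-labelled libraries (34, 38 and 9 reads). The labels were far apart and the wild-type libraries lay close together. The change was -5.50 on the log2(TPM + 1) scale (SE 0.28, limma adjusted p = 0.000891), and relative to the median of all genes -5.91. In reads over depth on the TPM scale it was 37.1-fold lower, with a 95% exact binomial interval of 29.6 to 46.9 that covers counting error only.

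SNORD3A, a gene of U3, the snoRNA that starts processing of the small-subunit ribosomal RNA, had wild-type levels of 2685, 3316 and 1884 TPM against 168, 165 and 277 TPM in the knockout-labelled libraries. Its change was -3.57 (SE 0.32, limma adjusted p = 0.00224). The annotated gene, 699 bases long, is longer than mature U3, which lowers its TPM in all libraries alike. The 4 U3 genes together had 729 wild-type and 118 knockout-labelled reads, 12.5-fold lower over depth (95% interval 10.3 to 15.3). They are near-identical copies and their reads may have been split among them. SNORD3C had 7 reads in the wild type and 0 in the knockout-labelled libraries.

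SNORD15B, an RNA of the U15 family in an intron of the ribosomal protein gene RPS3, was at 1649, 1276 and 861 TPM and at 91.8, 150.1 and 44.2 TPM. It changed by -4.04 (SE 0.49, limma adjusted p = 0.0042). SNORD94, in an intron of PTCD3, was at 517, 1209 and 612 TPM and at 48.9, 19.99 and 47.1 TPM, the second set from 4 reads in all. Its change was -4.14 (SE 0.39, limma adjusted p = 0.00252), and the ratio of reads over depth was 20.2-fold lower with a 95% interval of 7.31 to 77.8. In both genes every knockout-labelled library was below every wild-type library.

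Of the 32 C/D members, 13 were higher without overlap in the knockout-labelled libraries, beside 41.1% of all genes, and 10 of them had reads only there. Of the 13, 7 belong to 1 imprinted cluster. The others were SNORD4A, SNORD12B, SNORD63, SNORD69, SNORD116-1 and SNORD116-13, of which SNORD12B alone had wild-type reads (2 against 18). SNORD113 and SNORD114 RNAs are made from introns of long noncoding RNAs of the DLK1-MEG3 region on chromosome 14, expressed from the maternal chromosome. Their 7 members together had 1, 0 and 1 reads in the wild-type libraries and 33, 35 and 15 reads in the knockout-labelled libraries. SNORD114-20 and SNORD113-4 had 1 wild-type read each, and the other 5 had none. All 7 had reads in the 3 knockout-labelled libraries and met the rule through them. A higher sum was therefore in part set by how members were chosen, and no ratio is given for it. In TPM the sums were 98.4, 0 and 79.8 against 1529, 1323 and 1329. SNORD114-20 held most of these reads, at 98.4, 0 and 0 TPM (1 read in all) and 978, 837 and 448 TPM (21, 22 and 5 reads). Its adjusted p by limma was 0.0551 over all genes tested and 0.0148 over genes averaging 5 reads or more. It was also under 0.05 without knockout-labelled library 1 (0.0408) or 2 (0.0387) or wild-type library 1 (0.00695), with a pseudocount of 10 (0.0186), with voom on reads (4.1e-05) and with the 6 libraries as separate samples (0.0141). The cluster's annotated hosts differed. In MEG8, host of SNORD114-20 and of the other SNORD114 members, the log2 change was 0.05 (SE 0.17, limma adjusted p = 0.843). MIR493HG, host of the 3 SNORD113 members, rose from 9.01 ± 0.794 to 58.4 ± 4.27 TPM (2.57, SE 0.23, limma adjusted p = 0.00222). The SNORD116 members, from the imprinted Prader-Willi region, had 2 reads in the wild type and 16 in the knockout-labelled libraries. SNORD116-1 and SNORD116-13 had no wild-type read and became members through the knockout-labelled libraries alone, so the higher sum is no result. SNORD116-14 had 2 wild-type reads and 1 knockout-labelled read.

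Low-read C/D members gave most of the class's calls. Of the 32, 17 had at most 3 reads in every library and 10 had reads in knockout-labelled libraries only, up to the 14 reads of SNORD4A. SNORD4A, with 0 reads in the wild type, was also the member with the most reads among those detected in exactly 3 libraries, which had 3 to 14 reads in total. The 93 genes detected in exactly 2 libraries, just outside the rule, had 2 to 7 reads, with the most in SNORD114-14. Detection followed gene length: 22 of 276 SNORD genes of up to 100 bases were members (7.97%), 4 of 22 of over 100 and up to 150 bases (18.2%) and 6 of 14 longer ones (42.9%). It followed depth among the knockout-labelled libraries but not among the wild-type ones, where the shallowest, library 2, had more members with a read than library 1. These counts are of members, which were chosen by the same detections. Members with a read numbered 56, 60 and 66 in the wild-type and 75, 85 and 72 in the knockout-labelled libraries, and 52, 60 and 51 against 43, 45 and 52 when every library was thinned to 266130 reads.

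**Figure D3:**
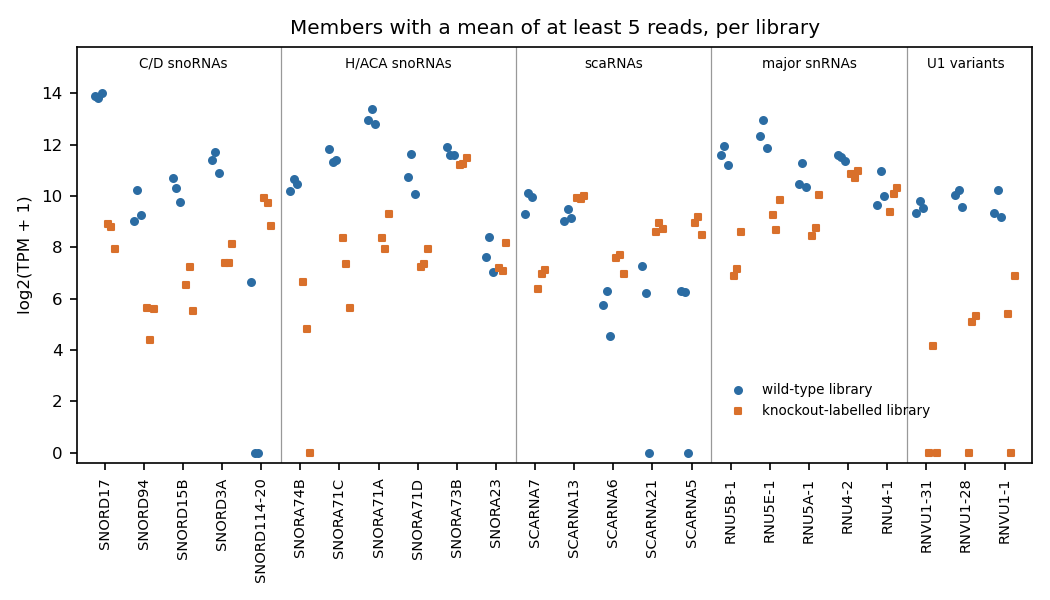
Log2(TPM + 1) of the 24 members with a mean of at least 5 reads in each of 6 libraries (circles wild type, squares knockout-labelled), by class and ordered by change within it. SNORD17 has the highest wild-type level, the labels overlap in RNU4-1 and lie close together in RNU4-2 and SNORA73B, and SNORD114-20, SCARNA5 and SCARNA21 are higher in all knockout-labelled libraries.

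The SNORA71 family led the H/ACA class in the wild type, and SNORA73B led it in the knockout-labelled libraries. The SNORA71 family is encoded in introns of SNHG17, a noncoding snoRNA host gene on chromosome 20, and its 4 members had 252, 215 and 246 reads in the wild-type libraries and 40, 37 and 22 in the knockout-labelled libraries. Over depth the family was 14.6-fold lower, with a 95% interval of 11.8 to 18.2. SNORA71A fell from 7982, 10812 and 7104 TPM to 325, 245 and 627 TPM (log2 change -4.33, SE 0.38, limma adjusted p = 0.00209). SNORA71C fell from 3647, 2549 and 2725 TPM to 325, 164 and 48.2 TPM (-4.74, SE 0.67, adjusted p = 0.00633), and with reads thinned to the shallowest library its adjusted p was 0.0519. SNORA71D fell from 1691, 3166 and 1072 TPM to 150.1, 164 and 241 TPM (-3.20, SE 0.48, adjusted p = 0.00737). SNORA71B, annotated at 272 bases against 134 for the others, had few reads: 0, 1 and 2 in the wild type and 8, 9 and 3 in the knockout-labelled libraries. The 4 genes are 82.8% to 90.3% identical, so single reads may not separate them.

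Other H/ACA members spread widely. SNORA73B, a U17 gene in SNHG3 with 277 wild-type and 417 knockout-labelled reads, was at 3819, 3094 and 3111 TPM in the wild type and at 2382, 2444 and 2849 TPM in the knockout-labelled libraries. These samples did not overlap, but the change of -0.34 (SE 0.16) had a limma adjusted p of 0.147. It was called lower with TPM scaled to the median ratio of genes (-0.70, adjusted p = 0.0342) or to genes over 300 bases (-0.71, adjusted p = 0.0252), with voom on reads (-0.67, adjusted p = 0.000243) and with the 6 libraries as separate samples (-0.38, adjusted p = 0.0439). In reads over depth on the TPM scale it was 1.34-fold lower (95% interval 1.15 to 1.57). SNORA74B, a U19 gene in an intron of ATP6V0E1, was at 1163, 1596 and 1400 TPM and at 100.1, 27.3 and 0 TPM. Its change was -7.42 (SE 1.69, limma adjusted p = 0.024). The size rests on the 0 in knockout-labelled library 3, without which it was -4.41, and without any 1 wild-type library the adjusted p was 0.0552 to 0.0576, and with a pseudocount of 0.1 it was 0.0632. In SNORA23, in an intron of IPO7, the values 195, 341 and 132 TPM overlapped with 147, 135 and 284 TPM (-0.04, SE 0.48, adjusted p = 0.958). Its counting interval ran from 2.39-fold lower to 1.68-fold higher. With reads thinned to the shallowest library SNORA23 was called lower (-1.41, adjusted p = 0.0424).

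ScaRNAs divided by gene. SCARNA7, which guides methylation of U1 and lies in an intron of the importin gene KPNA4, fell from 622, 1098 and 998 TPM to 81.3, 124 and 137 TPM (log2 change -2.88, SE 0.28, limma adjusted p = 0.00265). SCARNA13, in SNHG10, rose from 515, 715 and 566 TPM to 975, 936 and 1010 TPM (0.73, SE 0.16, adjusted p = 0.0224). That was 0.32 above the median of all genes, and the call was lost with TPM scaled to the median ratio of genes (0.37, adjusted p = 0.185) or to genes over 300 bases (0.36, adjusted p = 0.195), with voom on reads (0.45, adjusted p = 0.106), and without knockout-labelled library 3 (adjusted p = 0.104) or wild-type library 3 (adjusted p = 0.0543).

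SCARNA5 and SCARNA6 lie close together in ATG16L1, an autophagy gene, on chromosome 2. SCARNA5 was at 77.0, 75.0 and 0 TPM (5 reads) in the wild type and at 486, 576 and 351 TPM (113 reads) in the knockout-labelled libraries. SCARNA6 was at 53.5, 78.1 and 22.6 TPM and at 190, 207 and 122 TPM. Labels did not overlap in either gene. The adjusted p by limma was 0.139 for SCARNA5, whose SE of 2.04 came from the 0 in wild-type library 3, and 0.00876 without that library. With a pseudocount of 10 it was 0.0398 for SCARNA5, and with voom on reads 9.1e-06. For SCARNA6 it was 0.06, and 0.0187 over genes averaging 5 reads or more. For SCARNA6 it was also under 0.05 with voom on reads (0.0346), with a pseudocount of 10 (0.0394), with the 6 libraries as separate samples (0.0146), and without knockout-labelled library 1 (0.0445) or 2 (0.0459) or wild-type library 2 (0.0356) or 3 (0.0491). In reads over depth SCARNA5 was 11.2-fold higher (95% interval 4.65 to 35.1) and SCARNA6 3.96-fold higher (1.56 to 12.8). SCARNA21, in an intron of CHD3, was at 153, 74.4 and 0 TPM and at 386, 493 and 418 TPM (limma adjusted p = 0.192). Its adjusted p was 0.0238 without wild-type library 3, where it was at 0, and 0.00103 with voom on reads. The remaining pair, SCARNA1 and SCARNA20, had at most 2 reads in a library.

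**Figure D4:**
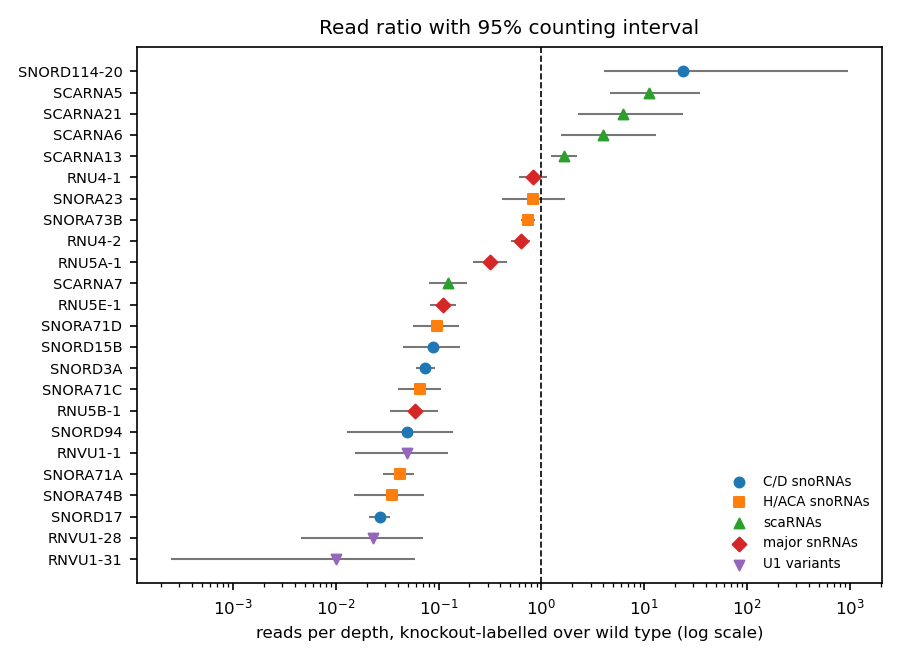
Reads per depth, with depth on the TPM scale, in the 3 knockout-labelled libraries over the 3 wild-type libraries (log scale). Lines are 95% exact binomial intervals that cover counting error only, for the 24 members with a mean of at least 5 reads. The ratio is 0.027 for SNORD17 and 0.11 for RNU5E-1, near 1 for RNU4-1, SNORA23 and SNORA73B, and 23.7 for SNORD114-20. SNORD114-20 met the rule through the knockout-labelled libraries, so its ratio was in part set by how members were chosen.

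The U5 genes that averaged 5 reads or more were lower in every knockout-labelled library, and of the U4 genes RNU4-2 was. The 4 U5 genes had 163, 164 and 146 reads in the wild-type libraries and 40, 42 and 44 in the knockout-labelled libraries, 7.59-fold lower over depth (95% interval 6.22 to 9.31). RNU5E-1 fell from 5135, 7848 and 3742 TPM to 614, 411 and 915 TPM (log2 change -2.96, SE 0.39, limma adjusted p = 0.00533). RNU5B-1 fell from 3114, 3925 and 2374 TPM to 116, 142 and 390 TPM (-3.77, SE 0.50, adjusted p = 0.00524). RNU5A-1 was at 1404, 2498 and 1290 TPM and at 347, 425 and 1058 TPM, without overlap. Its change of -1.37 (SE 0.51) had an adjusted p of 0.0915 over all genes tested and 0.0326 over genes averaging 5 reads or more. It was 0.0282 without knockout-labelled library 3, 1.7e-06 with voom on reads and 0.0255 with the 6 libraries as separate samples. The U5 genes are close copies of each other and single reads may not separate them, and RNU5E-1 overlaps an exon of the noncoding gene AL021155.2 on its strand. RNU5D-1 had at most 2 reads in a library.

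RNU4-2, the leading U4 gene, fell from 3064, 2936 and 2632 TPM to 1830, 1671 and 2015 TPM (log2 change -0.61, SE 0.13, limma adjusted p = 0.0197). Its adjusted p was 0.053 without knockout-labelled library 3 and 0.0535 without wild-type library 1. RNU4-1, 97.2% identical, overlapped between the labels at 804, 1982 and 1019 TPM and 666, 1088 and 1282 TPM (-0.15, SE 0.42, adjusted p = 0.808). With depth on the TPM scale, the 95% interval of the read ratio was 0.606 to 1.14 in RNU4-1 and 0.509 to 0.776 in RNU4-2. It was 0.218 to 0.463 in RNU5A-1, 0.0821 to 0.149 in RNU5E-1 and 0.0338 to 0.099 in RNU5B-1. These intervals cover counting error only. With voom, which scales to total reads, RNU4-1 changed by -0.46 (voom adjusted p = 0.164) and RNU4-2 by -0.93 (voom adjusted p = 5.7e-05). Whether the U4 and U5 genes differed in their change was not tested over samples. The U6 genes RNU6-2 and RNU6-8 had at most 2 reads in a library, and RNU6-1 had 2 reads in all.

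All 3 variant U1 genes that averaged 5 reads or more fell. RNVU1-28 was at 1037, 1199 and 767 TPM in the wild type and at 0, 33.4 and 39.4 TPM in the knockout-labelled libraries (log2 change -5.20, SE 0.39, limma adjusted p = 0.0016). RNVU1-1 was at 648, 1199 and 584 TPM and at 40.9, 0 and 118 TPM (-3.93, SE 0.77, adjusted p = 0.0154). RNVU1-31 had 15, 14 and 20 reads and then 0, 1 and 0 reads, a ratio over depth of 0.0101 with a 95% interval of 0.000251 to 0.059. Of the other 6, 4 were also called lower from at most 5 reads in a library (RNVU1-2, RNVU1-7, RNVU1-2A and RNVU1-19), beside 12.4% of all genes. These 4 and RNVU1-31 had reads in all 3 wild-type libraries and in 1 knockout-labelled library. They met the rule through the wild type, so their lower level was in part set by how members were chosen. RNVU1-6 and RNVU1-15 overlapped. The 5 annotated RNU1 copies among the members had 34 reads in the wild type and 2 in the knockout-labelled libraries. All 5 had reads in the 3 wild-type libraries and in at most 1 knockout-labelled library. These copies, too, became members through the wild type, so their fewer knockout-labelled reads were in part set by that choice.

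The main U1 and U2 genes, U11 and U12 of the minor spliceosome, and U7, which acts in histone messenger RNA processing, were not measurable in this table. RNU1-2, RNU1-3, RNU1-4, RNU2-1, RNU11, RNU12 and RNU7-1 were listed at 0 in all 6 libraries, and RNU1-1 had 1 read. U1 and U2 are abundant in dividing cells, 6 other U1 genes have exactly the sequence of RNU1-1, and RNU11, RNU12 and RNU7-1 overlap exons of other genes on their strand, so a 0 here is reported only as listed. How reads matching several genes were handled is not given in the sources used here. RNVU1-28, RNVU1-31 and RNVU1-7, within 2 edits of RNU1-1, are therefore uncertain as to their gene. Of the minor spliceosome, RNU6ATAC had 0, 1 and 1 reads and 3, 3 and 7 reads, and RNU4ATAC 0 reads in the wild type and 2, 1 and 1 in the knockout-labelled libraries. RNU4ATAC became a member through the knockout-labelled libraries alone, so its higher level there is no result.

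Other RNU copies were read-limited throughout, with no member reaching a mean of 5 reads. RNU1-11P had 11 reads and RNU1-18P 9 reads in the wild type, and RNU6-923P 8, all with 0 in the knockout-labelled libraries. They became members through the wild-type libraries alone, so a lower level under the other label was set by how they were chosen. The 7 RNU6 copies together had 19 wild-type and 29 knockout-labelled reads.

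Most snoRNA and scaRNA members sit inside a host gene, and 59 of 65 had one on their strand in the annotation (46 different hosts). Reads of unspliced host RNA over the same bases cannot be told apart from the small RNA. Of the 46 hosts, 22 were higher and 5 lower in the knockout-labelled libraries by limma (22.9% and 12.4% of all genes), with a median log2 change of 0.78. Among the 15 members with a mean of at least 5 reads and a host, member and host had opposite signs in 7.

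**Figure D5:**
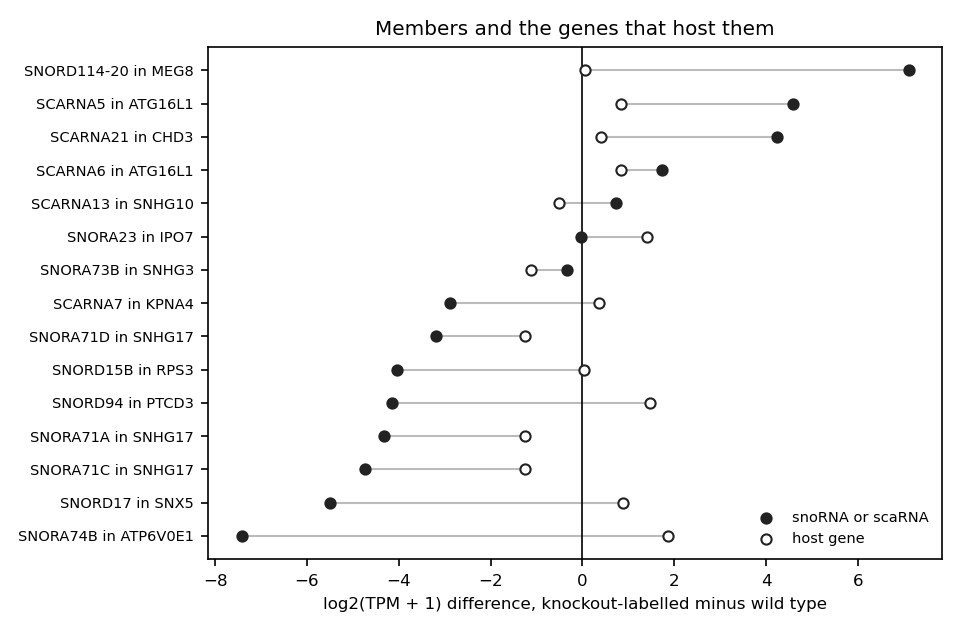
Difference in log2(TPM + 1), knockout-labelled minus wild type, of 15 members with a mean of at least 5 reads (filled circles) and of their host genes (open circles). SNORD17, SNORA74B and SNORD94 lie far left of hosts that are right of 0, while SNHG17 and its SNORA71A, SNORA71C and SNORA71D are left of 0.

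The pairs differed by host. SNX5 rose by 0.89 (SE 0.15, limma adjusted p = 0.0107), from 42.5 ± 3.65 to 79.8 ± 7.22 TPM, while its SNORD17 fell. ATP6V0E1, a proton pump subunit gene, rose by 1.87 (SE 0.19, adjusted p = 0.00272) while SNORA74B fell, and PTCD3 rose by 1.48 (SE 0.32, adjusted p = 0.0204) while SNORD94 fell. SNHG17 fell, as did SNORA71A, SNORA71C and SNORA71D, by 1.24 on the log2 scale (SE 0.17, adjusted p = 0.00572), from 231 ± 36.9 to 96.4 ± 11.96 TPM. SNORA71B, in the same host, was higher without overlap from 3 and 20 reads (2.78, limma adjusted p = 0.271). In SNHG3 the host fell by 1.12 (SE 0.17, adjusted p = 0.00746), and the change of SNORA73B was -0.34. In RPS3 the change was 0.04 (SE 0.12, adjusted p = 0.822). ATG16L1, host of SCARNA5 and SCARNA6, rose by 0.83 (SE 0.21, adjusted p = 0.0301).

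Genes of the proteins that bind, build and modify these RNAs were called in both directions. Of 127 genes in 9 lists, 49 rose and 13 fell by limma, where 22.9% of all genes tested rose and 12.4% fell, with a median log2 change of 0.72 beside 0.41 for all genes. With TPM scaled to the median ratio of genes the calls were 31 and 19, and the median of all genes was 0.11. The share of all genes called under that scaling was not counted. The 15 U1 and U2 snRNP protein genes gave 11 higher and 0 lower, and the 17 Sm and LSm genes, which form the rings on snRNAs, 7 higher and 0 lower. The C/D snoRNP list gave 6 higher and 2 lower of 13, the H/ACA list 4 and 1 of 10, and the U4/U6.U5 tri-snRNP list 5 and 3 of 15. The minor spliceosome list gave 2 and 3 of 10, the snRNA transcription and 3′ processing list 6 and 1 of 23, the export and assembly list 4 and 2 of 14, and the U6 maturation and snRNA modification list 4 and 1 of 10.

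Individual genes of these lists spanned both directions. Among genes that rose, SF3B6, which contacts the branch point adenosine, went from 33.4 ± 25.5 to 334 ± 53.4 TPM (log2 change 3.60, SE 0.71, limma adjusted p = 0.0162), and SF3B4 rose by 2.23. NOP10, a core protein of H/ACA particles, went from 50.5 ± 37.3 to 408 ± 65.5 TPM (3.22, SE 0.56, adjusted p = 0.0114), and TENT4B, a poly(A) polymerase that acts on H/ACA RNA ends, rose by 2.01. RPAP3, a subunit of the R2TP chaperone, rose by 3.35, whereas PIH1D1 of the same chaperone fell by 1.75. LSM3 and SNRPF rose by 2.61 and 2.34, INTS12 and INTS14 of the Integrator complex by 2.27 and 1.88, ZCRB1 and RNPC3 of the minor spliceosome by 1.66 and 1.56. LARP7 rose by 2.04 and METTL4, an snRNA methyltransferase, by 2.63 from 0.412 ± 0.714 TPM. PHAX, the export adaptor of snRNAs, fell from 279.6 ± 39.7 to 80.7 ± 4.15 TPM (-1.77, SE 0.15, adjusted p = 0.00208). SART1, which recruits the tri-snRNP, fell from 359 ± 7.28 to 120.1 ± 16.1 TPM (-1.58, SE 0.12, adjusted p = 0.00154). SNRNP40 of the U5 particle rose by 1.80 and STRAP of the SMN complex by 2.08.

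In poly(A) RNA, most members were hardly counted. Of the 99, 24 had a mean normalized count of 0, 56 a mean above 0 and under 1, and 20 an adjusted p, all in the authors' deposited table. SNORA53 was the 1 member called, where the authors called 9.55% of 14009 genes positive and 10.3% negative, at a mean normalized count of 28.5 and a log2 fold change of 0.71 (SE 0.27, adjusted p = 0.0468) in the authors' deposited table. The next lowest adjusted p among members in the authors' deposited table was 0.242, and the median log2 fold change of the 20 members was -0.08, beside 0.02 for all genes. In the rRNA-depleted libraries SNORA53, in an intron of the phosphate carrier gene SLC25A3, had 3, 0 and 3 reads and 7, 10 and 2 reads (limma adjusted p = 0.488). SNORD17 had a mean normalized count of 9.54 and a log2 fold change of -0.06 (SE 0.37, adjusted p = 0.939) in the authors' deposited table. SNORA71A, RNU5E-1 and RNVU1-28 had means under 1 and no adjusted p in it. A positive sign is taken there as higher in the knockout, which the table does not state. The hosts split 8 positive and 9 negative of 46 in the authors' deposited table. Of the 127 component genes 10 were positive and 28 negative in it, including 12 negative and 0 positive of the 17 Sm and LSm genes, with a median log2 fold change of -0.46 for that list. Named risers negative in it were NOP10 (-0.68, adjusted p = 2.2e-05), SNRPF (-0.72, 6.0e-06), LSM3 (-0.45, 0.00256), SNRNP40 (-0.50, 0.00367) and STRAP (-0.22, 0.022). RNPC3 was positive (0.61, adjusted p = 0.0181), and the other named genes that rose were not under 0.05 there.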

How the data were processed

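RNA was sequenced from wild-type HMC3 cells and HMC3 cells labelled METTL3 knockout, in 3 and 3 rRNA-depleted libraries. The submitters' processing notes name Trimmomatic, STAR, DESeq2 and hg38, with no order or version; how multi-mapping reads were treated and which annotation was used are not given in the sources used here. The authors deposited TPM for the rRNA-depleted libraries, a length-corrected share of each library. The poly(A) libraries are represented by 1 deposited comparison without values per library. Per the file headers it gives a mean normalized count (a signal pooled over libraries), the log2 fold change and its SE, a test statistic (a score) and raw and adjusted p-values.

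Members were matched by gene identifier to GENCODE 29 (GRCh38) for length, position and sequence. Reads were recovered as TPM times exon length over the worth of 1 read, and 90.9% of values above 0 were whole to within 0.02. The test was limma 3.58.1 under R 4.3.3, with lmFit and a trended eBayes on log2(TPM + 1). It covered genes that reached 1 TPM in 3 or more libraries, with Benjamini-Hochberg adjustment over them all. The added 1 shrinks fold changes of genes at about 1 TPM or less. For members at 0 in a library the change can instead be large, and its size depends on the pseudocount. SNORA74B changed by -9.09 with a pseudocount of 0.1, by -7.42 with 1 and by -5.67 with 10. The limma step was tested on simulated data. Knockout-labelled libraries 1 and 2 were averaged after a chi-square test over genes with at least 10 reads. Class sums and medians have no test. Intervals are exact (Clopper-Pearson) at 95% and cover counting error only. Their ratios divide reads by the sum over libraries of 1 over the TPM worth of a read, not by total reads. A host is the shortest annotated gene that spans a member on its strand. Figures used matplotlib 3.10.9 with Python 3.11.15, pandas 2.3.3, numpy 2.4.6 and scipy 1.17.1.

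Members and gene lists were chosen with earlier results of these data known. Named in the text are the snRNA genes with a known function, the 5 members of each snoRNA class and of the scaRNAs with the highest mean TPM, those that passed the test with more than 3 reads in a library of each label, the member called in poly(A) RNA, and the 2 component genes per list with the largest change past the threshold. Members with a mean of at least 5 reads outside this rule, low-read members, and RN7SL1 and RN7SL2 were chosen after their values were seen. Some sequences are not reported here. Alternatives were another pseudocount, filter, scaling, the voom weights of limma on reads, thinned reads, a replicate block and leaving out each library.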

Additional observations from a re-analysis of the deposited data

How the results depend on the processing

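Counts of called members depended most on reads. The share of all genes called was counted only for the main fit (22.9% higher, 12.4% lower) and the mean of 5 reads (34.1% and 15.4%). In the other settings counts of members and component genes cannot be set against all genes. Members called higher numbered 20, but 3 with at least 5 reads in 3 libraries or a mean of at least 5 reads (an alternative chosen after seeing the data), 6 with reads thinned to the shallowest library and 6 under voom on reads; leaving out 1 library gave 0 (without knockout-labelled library 3) to 27. Members called lower numbered 28, but 16 under both read limits, and 16 (without wild-type library 2) to 29 when 1 library was left out. The median log2 change of members, 0.73, turned to -2.96 and -3.08 under the read limits, -1.52 with thinned reads and -0.67 with voom, and ran from -1.45 to 0.41 when 1 library was left out, negative whenever a knockout-labelled library was left out. Without library 3 the knockout label is 1 sample, assumed to vary like the wild type. Component genes called higher numbered 49, but 31 with median ratio scaling, 31 with thinned reads, 30 with scaling to genes over 300 bases, and 19 (without knockout-labelled library 3) to 48 when 1 library was left out; those lower numbered 13, but 20 with that scaling, 23 with voom, and 8 to 12. In these settings fewer genes or samples were tested for the read limits, thinning and left-out libraries, and voom covered only genes with a length. Elsewhere the cause was not tested.

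On the log2 scale the class sums changed under median ratio scaling and scaling to genes over 300 bases to -2.40 and -2.42 (H/ACA, -2.05 as deposited), -2.90 and -2.92 (C/D, -2.55), -2.27 and -2.29 (all members, -1.91), and -0.0075 and -0.023 (scaRNAs, 0.35). A TPM above 0 in all 6 libraries left 22 members, and more than 3 reads in at least 3 left 25. RNU4-1, at -0.15, changed sign without knockout-labelled library 1 (0.0072) and without wild-type library 2 (0.23), and SNORA23, at -0.04, without wild-type library 2 (0.32); leaving out each library gave ranges of -0.42 to 0.23 and -0.54 to 0.32. Of the 24 members with a mean of at least 5 reads, SNORD17, SNORD3A, SNORD15B, SNORD94, SNORA71A, SNORA71D, SCARNA7, RNU5B-1, RNU5E-1, RNVU1-1, RNVU1-28 and RNVU1-31 stayed lower and past the threshold in all 17 alternatives of the fit. For RNVU1-31, which met the rule through the wild type, this was in part set by how members were chosen.

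Equal replicate numbers did not pair the libraries: same-numbered libraries had correlations of deviations of 0.02, -0.02 and 0.008. With a replicate block, 26 members were higher and 32 lower, the median was 0.19, and 62 component genes were higher and 14 lower. The median of all genes was 0.43 in that fit, and their share called was not counted. Shallow depth limits every member of few reads.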
